A study of Mus musculus with 10 samples.

Results

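The genes described here are 10 genes of matrix turnover: the matrix metalloproteases Mmp2, Mmp3, Mmp8, Mmp9, Mmp13 and Mmp14, and the tissue inhibitors of metalloproteases Timp1, Timp2, Timp3 and Timp4. They were chosen by name, and every probe set that the platform annotation assigns to one of these symbols was taken: 23 of the 45037 probe sets that are not controls. All 10 genes were on the array. RNA had been taken from the cochlea, the hearing organ of the inner ear, of male mice aged 9 months. The D257A group (n = 5 arrays) was homozygous for the D257A form of Polg (PolgD257A/D257A), and the WT group (n = 5 arrays) was Polg+/+. Polg is the gene of the enzyme that copies mitochondrial DNA, and the D257A form lacks the proofreading step, so that mutations build up in mitochondrial DNA throughout the body. The comparison asked which cochlear transcripts differ between such mice and their WT counterparts.

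Matrix metalloproteases are zinc-dependent enzymes that cut collagens, gelatin, proteoglycans and other proteins of the extracellular matrix. Most are secreted as inactive proenzymes and are switched on by removal of a propeptide, and the TIMP proteins close the active site of the mature enzymes. The inner ear holds several of their substrates, in its basement membranes, in the fibrous spiral ligament and in the bone of the otic capsule. Some of the enzymes are also carried in by neutrophils and macrophages.

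The values were linear array signals in arbitrary units, and their trimmed mean lay between 1494 and 1496 on all arrays. D257A replicate 2 and WT replicate 3 stood apart: their mean correlations with the arrays of their own group were 0.839 and 0.876, against 0.878 to 0.939 for the other arrays. Over the 21 tested probe sets described here, D257A replicate 2 was the lowest D257A array in 9 and WT replicate 3 the lowest WT array in 12, against 24.2% and 29.5% of all tested probe sets. Without both arrays 0 of the 10 genes and 1 of the 21 probe sets described here were called, against 574 of all 22518 tested probe sets. A set of 18 cochlear markers was largely measured, with 14 in the tested part of the array. Tecta, Slc26a5, Pou4f3 and Atoh1, genes of the tectorial membrane and of hair cells, lay below it. The Polg signal averaged 2751 ± 542.4 in D257A and 2792 ± 477.6 in WT cochleae (SD, n = 5 each), which does not check a single amino acid change. Markers of tissue around the cochlea differed between the groups: of 11 tested skeletal muscle markers 0 were positive and 5 were called lower in D257A (summed signal 8343 to 242493 in D257A and 140540 to 432589 in WT), and of 9 tested middle ear and airway epithelium markers 0 were positive and 5 were called lower (61119 to 106287 in D257A and 156148 to 284412 in WT). Of 7 tested glial and myelin markers 6 were positive and 2 called higher (176581 to 191637 in D257A and 133190 to 166237 in WT). With each array left out, the call of Mobp was lost for 9 of the 10 arrays and that of Egr2 for 5, and among the muscle markers that of Tnnt3 for 7. Of 6 tested adipocyte markers 2 were called lower (27371 to 108069 in D257A and 53434 to 99780 in WT). In macrophage (9 tested), endothelial and pericyte (8), osteoblast and hypertrophic cartilage (6) and osteoclast (5) markers 0 were called, and of the 14 cochlear markers 1 was called higher. In whole tissue, fewer cells of a type and less RNA per cell cannot be told apart.

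The clearest difference among the 10 genes was that of gelatinase A, Mmp2, and it was seen with 1 of its 2 probe sets. Probe set 1416136_at was 1.985-fold lower in D257A cochleae, while 1439364_a_at differed by less than the spread between arrays. The other genes did not pass the test: signals of the stromelysin Mmp3 and the collagenase Mmp13 were high in 2 D257A cochleae and in or near the WT range in the other 3. The brightest probe set of Timp3 gave lower signals on every D257A array than on any WT array without reaching the threshold, and Mmp14 and Mmp9 had log2 fold changes near 0. The brightest probe set stands for a gene, and a call means an adjusted p under 0.05 in limma over all 22518 probe sets in the brighter part of the array (those above the median mean signal). All 10 genes had a probe set there, 21 probe sets in all, and 2 dim ones were left out (Mmp14 1416572_at and Timp2 1437081_at). By the brightest probe set 0 of the 10 genes were called in limma, against 2.32% of all 11871 tested genes (0.657% higher and 1.66% lower in D257A). Unadjusted p was under 0.05 for 4 of them, Mmp3, Mmp8, Timp2 and Timp3, and with a fold over 1.1 added, the rule the study itself used, 16.7% of all tested genes passed. Over all probe sets 1 of 21 was called, Mmp2 1416136_at, against 2.28% of all tested probe sets (1.03% higher and 1.24% lower in D257A). The groups did not overlap in 2 of the 21 probe sets, Mmp2 1416136_at and Timp3 1449335_at. Both were lower in D257A, and 2.69% of all tested probe sets did not overlap in that direction. By the brightest probe set the groups did not overlap in 1 of 10 genes, against 5.29% of all tested genes, counting either direction. The log2 fold change was positive in 5 of 6 proteases and 2 of 4 inhibitors, against 47.1% of all tested genes, with a median of 0.26 over the 10 genes against -0.0223 over all tested genes. Of the 5 positive proteases, Mmp9 and Mmp14 turned negative with arrays centred on the median (-0.0108 and -0.0925).

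**Figure D1:**
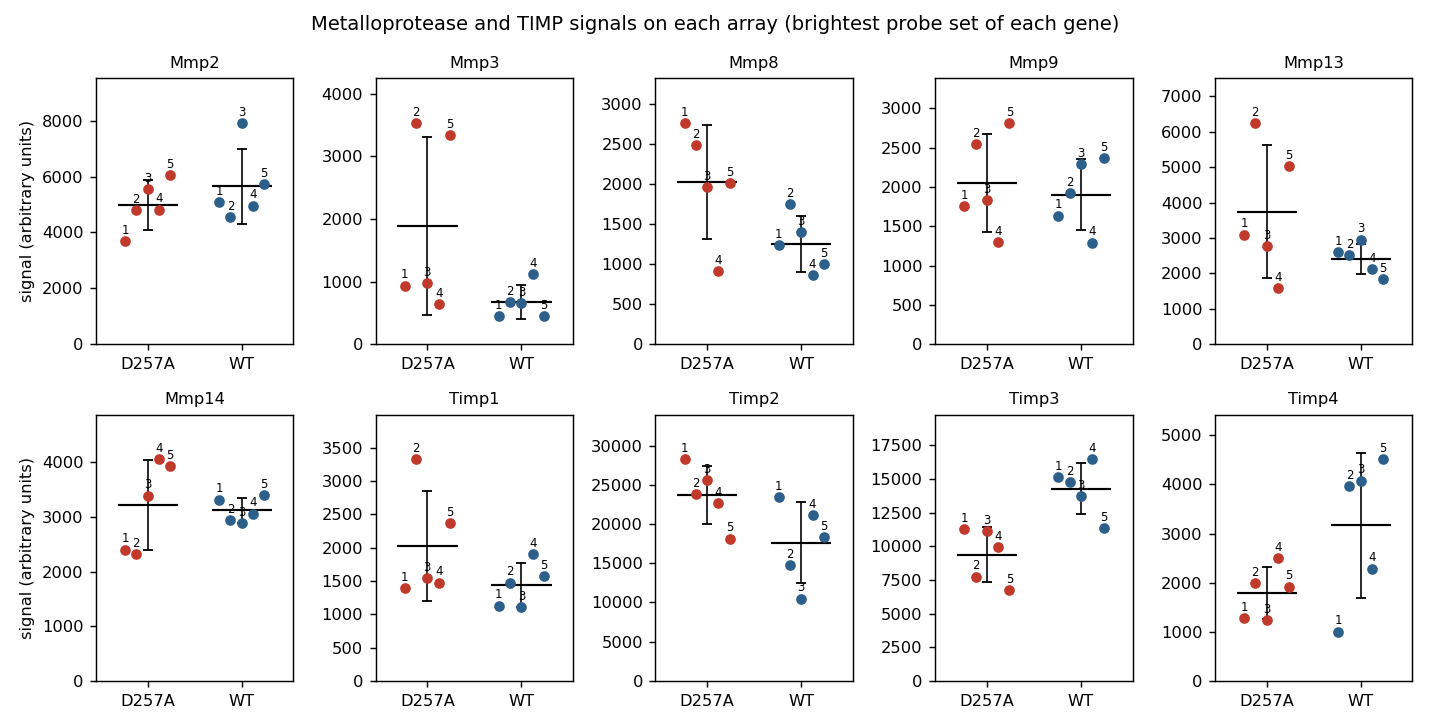
Signal in arbitrary units (vertical axis, linear from 0) of each gene's brightest probe set, with D257A arrays left of WT arrays; points are arrays marked with their replicate number, lines are means and bars are SD (n = 5 each). The groups do not overlap in Timp3 alone among the 10 panels, and Mmp3, Mmp13 and Timp1 are high in D257A replicates 2 and 5.

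Mmp2, or gelatinase A, cuts denatured collagen and the type IV collagen of basement membranes and is made mainly by fibroblasts. Probe set 1416136_at gave 2872, 2224, 2946, 2749 and 2439.5 in D257A replicates 1 to 5, against 5172, 5224, 4451, 4963 and 6619.8 in WT replicates 1 to 5. Every D257A array lay below every WT array. Among all tested probe sets the groups did not overlap in 5.16%, counting either direction. The means were 2646 ± 305.3 in D257A and 5286 ± 805.8 in WT (SD, n = 5 each; log2 fold change -0.99, SE 0.16, 95% interval -1.33 to -0.65, limma adjusted p = 0.00809).

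The other Mmp2 probe set, 1439364_a_at, which is the brighter one, gave 3694, 4798, 5537, 4819 and 6050.4 in D257A, against 5082.5, 4559, 7925, 4962 and 5723 in WT. Here the groups overlapped, with WT replicate 2 below 4 of the D257A arrays. Its log2 fold change was -0.17 (95% interval -0.58 to 0.24, limma adjusted p = 0.696). The contrast between the probe sets was chosen after their values were seen. The log2 signal of 1416136_at minus that of 1439364_a_at averaged -0.897 ± 0.355 in D257A and -0.0798 ± 0.43 in WT (SD, n = 5 each). The difference was -0.817, with a two-sided exact permutation p of 0.0238. Because the contrast was formed from these same values, its p-values are a description and cannot count as support. WT replicate 3, at -0.83, lay among the D257A arrays. The call of 1416136_at was kept without D257A replicate 2 and WT replicate 3 (log2 fold change -0.99, limma adjusted p = 0.00816) and when each array was left out in turn (adjusted p 0.00765 to 0.0324). The mean of both probe sets was also called (log2 fold change -0.58, limma adjusted p = 0.0419). That mean contains 1416136_at, so it is no separate support for the call. With the replicate number as a block the call of 1416136_at was lost (limma adjusted p = 0.0512), and the difference between the probe sets had an exact sign-flip p of 0.0625, the smallest that 5 pairs allow.

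**Figure D2:**
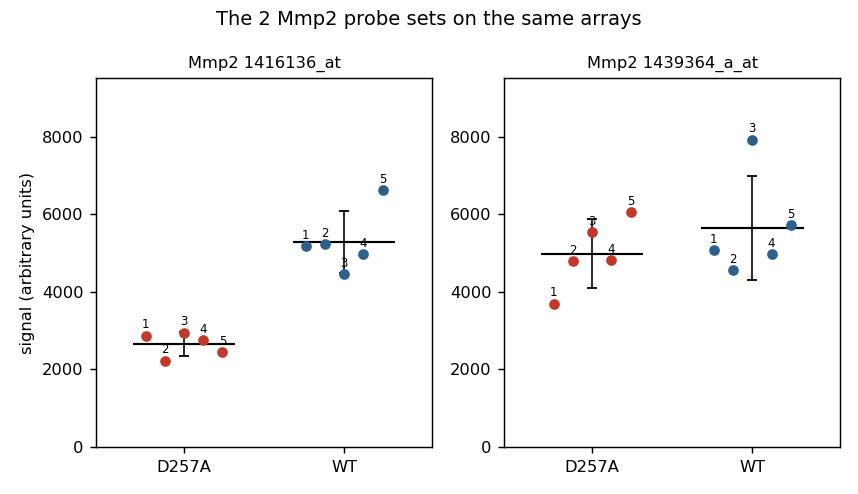
Signal in arbitrary units of the 2 Mmp2 probe sets on the same linear axis, D257A left of WT; points are arrays with their replicate number, lines are means and bars are SD (n = 5 each). The D257A arrays lie between 2224 and 2946 with 1416136_at, all below the WT arrays, and overlap them with 1439364_a_at.

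The profiles most like that of 1439364_a_at were Fam171a2 (Pearson r 0.91 over 10 arrays), Otub1 (0.891) and the folate carrier gene Slc46a1 (0.891). Markers of fibroblasts and genes of matrix substrates also had mostly negative log2 fold changes, and Dcn and Lum are in both lists. Of 11 tested fibroblast markers 10 were negative (median -0.628) and 1 was called, dermatopontin (Dpt), a small matrix protein, at 1611 ± 229.8 in D257A and 3640 ± 963.6 in WT (log2 fold change -1.14, limma adjusted p = 0.0127). Summed over all 12 named fibroblast markers, the signal was 61824 to 85317 in D257A and 75999 to 94915 in WT, and Tcf21 lay below the tested part. Among 17 tested matrix substrates 14 were negative (median -0.396), and 4 were called, all lower in D257A. They were Col1a1 (log2 fold change -2.07, limma adjusted p = 0.0196), Col1a2, Col3a1 (-1.05, adjusted p = 0.00486) and the proteoglycan gene Bgn (-0.92, adjusted p = 0.00444). Col1a2, a chain of type I collagen, averaged 17330 ± 2422 in D257A and 32130 ± 7551 in WT (SD, n = 5 each; log2 fold change -0.87, limma adjusted p = 0.0273), a call lost for 6 of the 10 arrays when each was left out (adjusted p up to 0.0903, without WT replicate 2). Col1a1 averaged 4922 ± 2585 in D257A and 19390 ± 7624 in WT, and its call was lost for 3 of the 10 arrays (adjusted p up to 0.0661, without WT replicate 5). The part of these markers in the Mmp2 difference was not tested.

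Mmp9, gelatinase B, is stored in neutrophil granules and is also made by osteoclasts. Osteoclast markers had a summed signal of 7576 to 9414 in D257A and 9744 to 12319 in WT, with Calcr, Oscar, Dcstamp, Atp6v0d2 and Ocstamp below the tested part. Directions were mixed among the 5 tested markers: 2 were positive and 3 negative (median log2 fold change -0.179), and 0 were called. The brightest Mmp9 probe set gave 1302 to 2816 in D257A (median 1828) and 1291 to 2362 in WT (median 1917). The ranges nearly coincided, and in both groups replicate 4 was the lowest and replicate 5 the highest. The log2 fold change was 0.09 (95% interval -0.43 to 0.61, limma adjusted p = 0.891), and its sign turned with the arrays centred on the median (-0.0108). The other Mmp9 probe set, 1448291_at, had a log2 fold change of 0.21 (limma adjusted p = 0.809), with 637 to 1669 in D257A and 394 to 1438 in WT. Its lowest arrays were D257A replicate 2 and WT replicate 3, unlike those of the brightest probe set. Hdc, the histamine-forming enzyme of mast cells and basophils, had the most similar profile (Pearson r 0.939 over 10 arrays), followed by Gm29538 (0.93) and Adgre5 (0.885).

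Mmp3 (stromelysin 1, which cuts proteoglycans and activates other proenzymes), Mmp13 (collagenase 3, of cartilage and bone) and Mmp8 (neutrophil collagenase) lie in 1 cluster of 10 metalloprotease genes on chromosome 9, in the RefSeq order Mmp13, Mmp12, Mmp1b, Mmp3, Mmp1a, Mmp10, Mmp8, Mmp27, Mmp20 and Mmp7. Promoters of 8 of the 10 genes were matched in RefSeq (build GRCm38.p6), and the 250 bases before the start were searched on both strands for the AP-1 letters TGANTCA, which 6.75% of 32851 promoters of that length hold. The AP-1 letters were found in 2 of the 8, Mmp3 and Mmp13, and Mmp2 and Mmp9 had no matched promoter. The part of AP-1 in the array signals was not tested. The windows that hold the AP-1 letters are shown 5′ to 3′, with those letters in capitals. Both genes are on the plus strand, and the stretches are chr9:7445572-7445821 for Mmp3 and chr9:7272264-7272513 for Mmp13.
Mmp3: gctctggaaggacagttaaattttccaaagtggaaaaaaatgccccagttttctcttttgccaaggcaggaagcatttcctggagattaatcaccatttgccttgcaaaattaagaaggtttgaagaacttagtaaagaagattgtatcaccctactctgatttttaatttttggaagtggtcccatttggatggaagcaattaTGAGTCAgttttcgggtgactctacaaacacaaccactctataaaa
Mmp13: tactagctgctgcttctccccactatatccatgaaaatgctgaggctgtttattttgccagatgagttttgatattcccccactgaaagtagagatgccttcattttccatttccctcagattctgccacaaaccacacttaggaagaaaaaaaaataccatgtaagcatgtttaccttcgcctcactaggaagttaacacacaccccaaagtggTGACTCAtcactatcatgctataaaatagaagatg
The letters stand 46 to 40 bases before the RefSeq start of Mmp3 and 35 to 29 bases before that of Mmp13. Both stretches also hold TATAAA, found in 12.4% of promoters, 7 to 2 bases before the start in Mmp3 and 16 to 11 in Mmp13. Whether these starts are the ones used in the cochlea is not known here. Such matches describe the sequence and are not shown to be bound.

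Mmp3 gave 936, 3534.5, 971, 638 and 3333 in D257A replicates 1 to 5, against 448, 670.3, 661, 1113 and 449 in WT replicates 1 to 5. Replicates 2 and 5 were the high D257A arrays, and the other 3 lay within the WT range. The means were 1883 ± 1424 in D257A and 668.2 ± 271.2 in WT (SD, n = 5 each; log2 fold change 1.2, SE 0.46, 95% interval 0.20 to 2.21, unadjusted p = 0.0227, limma adjusted p = 0.207). D257A was higher in 20 of the 25 pairs of 1 D257A and 1 WT array. Without D257A replicate 2 and WT replicate 3 the log2 fold change was 0.91 (limma adjusted p = 0.301), and with each array left out it lay between 0.89 (without D257A replicate 2) and 1.5 (without D257A replicate 4).

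Mmp13 followed the same arrays, with 3096, 6256, 2764, 1577 and 5039 in D257A, against 2606, 2523, 2956, 2131 and 1842 in WT. Again replicates 2 and 5 were the highest and replicate 4 the lowest, below every WT array. The log2 fold change was 0.49 (95% interval -0.19 to 1.18, limma adjusted p = 0.459), and it was 0.27 without D257A replicate 2 and 0.77 without D257A replicate 4.

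Mmp8 gave 2765, 2488, 1957, 908 and 2007 in D257A, against 1238, 1751, 1398, 862 and 1005 in WT. All D257A arrays except replicate 4 lay above the highest WT array. The means were 2025 ± 709.8 in D257A and 1251 ± 347.9 in WT (SD, n = 5 each; log2 fold change 0.64, SE 0.29, unadjusted p = 0.0484, limma adjusted p = 0.291). Without D257A replicate 2 and WT replicate 3 the log2 fold change was 0.59 (limma adjusted p = 0.342), and the lowest adjusted p among the alternatives was 0.0628, without D257A replicate 4.

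Markers of neutrophils had mostly positive log2 fold changes. Of 13 tested neutrophil markers 12 were positive (median 0.945), 2 were called higher (the granule enzymes Mpo and Ctsg) and 1 called lower (Ltf, also secreted by glands). With each array left out in turn, the Mpo call was lost for 7 of the 10 arrays, that of Ctsg for 6 and that of Ltf for 6 (limma adjusted p up to 0.0825 without WT replicate 4, 0.0846 without WT replicate 5 and 0.0939 without WT replicate 2). Over all 15 measured markers the summed signal was 262714, 345262, 185451, 115969 and 284470 in D257A, against 123394, 190595, 155968, 114490 and 161068 in WT. In both groups replicate 4 had the lowest sum, as it had the lowest signals of Mmp8 and of the brightest Mmp9 probe set. Padi4 and Cxcr2 lay below the tested part. The profiles most like that of Mmp8 over the 10 arrays were S100a9 (Pearson r 0.931), Nusap1 (0.926) and S100a8 (0.926), the first and last being calcium-binding proteins of neutrophils. S100a9 gave 31605 to 107779 in D257A and 21706 to 40954.5 in WT. The part of neutrophil number in the Mmp8 signal was not tested.

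The remaining measured genes of the cluster were dim, and Mmp27 had no probe set assigned to it alone. Mmp12, macrophage elastase, gave 48.2 to 283.5 in D257A and 258.9 to 758.7 in WT, and Mmp20, the enamel protease, 129.8 to 293.6 in D257A and 50 to 162.9 in WT; without the filter on dim probe sets their limma adjusted p were 0.0913 and 0.135. Mmp1a, Mmp1b, Mmp7 and Mmp10 also lay below the tested part. Whether they exceeded background is not known here.

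By the brightest probe set, D257A replicates 2 and 5 were both above the other 8 arrays in 4 of the 10 genes. These were Mmp3, Mmp9 (not with its other probe set, 1448291_at), Mmp13 and Timp1. The same held for 5.75% of all 11871 tested genes. Among the lists it held for 7 of 14 tested transcription and cytokine regulators, 4 of 13 neutrophil markers and 2 of 12 activators and regulators. It held for 0 of 15 ADAM and ADAMTS proteases and 0 of 17 matrix substrates. These counts were chosen after the values were seen and carry no test. Of the 7 regulators 2 are shown, and Lcn2 is added as a gene that did not follow these arrays. Il1b, an inflammatory cytokine, gave 1449, 8263.5, 1799.7, 428 and 6836 in D257A, against 643, 421, 835, 684 and 487 in WT (log2 fold change 1.92, limma adjusted p = 0.148). Junb, an AP-1 subunit, gave 834, 2672, 1581, 1039.8 and 3777 in D257A, against 786, 828, 501, 842 and 1222 in WT (log2 fold change 1.06, limma adjusted p = 0.177). Lcn2, whose protein binds Mmp9 and which is also one of the neutrophil markers, was high in D257A replicate 5 alone at 33667, with 6753 to 10983 on the other D257A arrays and 1794 to 7231 in WT (log2 fold change 1.44, limma adjusted p = 0.105). None of these 3 was called. The genes with the profiles most like Mmp3 were Htr2c, a serotonin receptor (Pearson r 0.953 over 10 arrays), Sln, a regulator of the calcium pump of muscle (0.951), and Sbno2 (0.948). For Mmp13 they were Osmr, the oncostatin M receptor (0.961), Gpam (0.956) and Sp100 (0.951). Osmr gave 3086, 7649.5, 2668.5, 2084 and 5645 in D257A, against 2208 to 3894 in WT. These correlations are over arrays of which 2 stand high and carry no test.

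**Figure D3:**
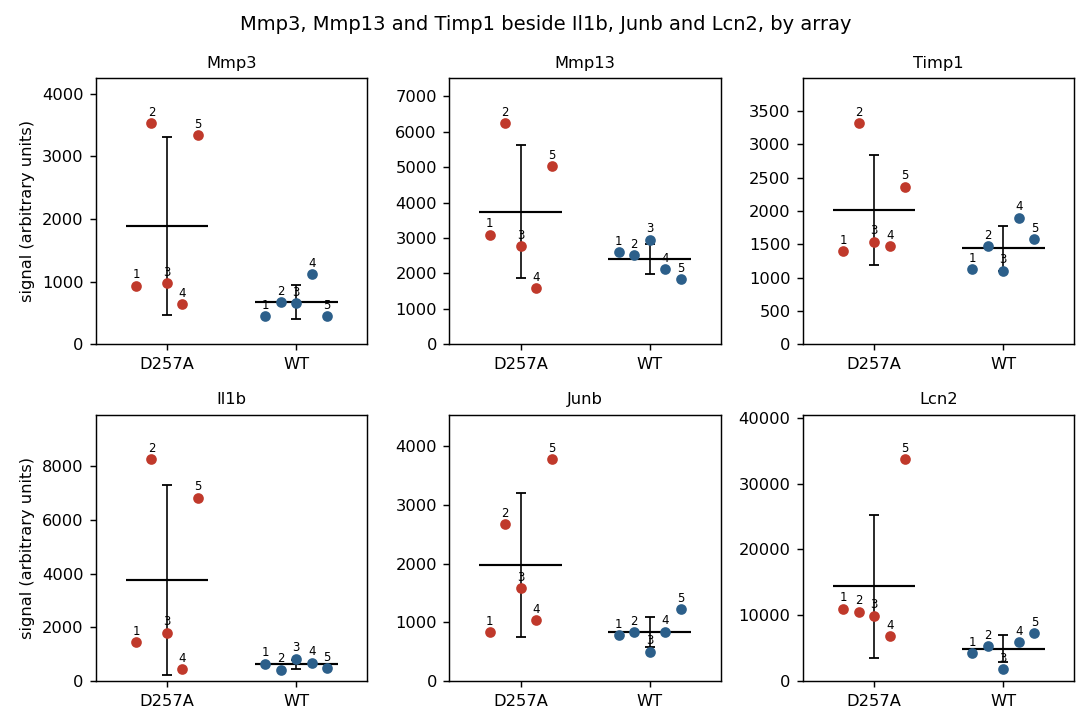
Signal in arbitrary units (linear axes from 0) of Mmp3, Mmp13 and Timp1 above and of Il1b, Junb and Lcn2 below, D257A left of WT; points are arrays with their replicate number, lines are means and bars are SD (n = 5 each). D257A replicates 2 and 5 are the highest of the 10 arrays for Mmp3, Mmp13, Timp1, Il1b and Junb.

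Mmp14, the membrane-bound protease that activates pro-Mmp2 at the cell surface, did not separate the groups. Its brightest probe set gave 2405, 2323, 3394, 4056 and 3933 in D257A, against 3319.7, 2939, 2894, 3065 and 3399 in WT. D257A replicates 1 and 2 lay below all WT arrays and replicates 4 and 5 above them, so the spread was wider in D257A (SD 822.5) than in WT (SD 226.2) around nearly equal means of 3222 and 3123. The log2 fold change was 0.01 (95% interval -0.40 to 0.41, limma adjusted p = 0.991). The difference in spread was not tested. Probe set 1440920_at had a log2 fold change of 0.07 (limma adjusted p = 0.926), and the dim 1416572_at, fitted without the filter, one of 1.24 (limma adjusted p = 0.425) with 127.7 to 876.5 in D257A and 18.1 to 463.8 in WT. The most similar profiles were Plekha4 (Pearson r 0.978 over 10 arrays), Rgs12 (0.965) and Btbd2 (0.965).

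Among the inhibitors, Timp1, the secreted and inducible TIMP that also binds pro-Mmp9, was highest in the same arrays as Mmp3. It gave 1396, 3326, 1539.6, 1475 and 2367 in D257A, against 1130.2, 1476, 1106.5, 1900.4 and 1579 in WT. Replicates 2 and 5 were above all WT arrays and the other 3 within the WT range. The log2 fold change was 0.43 (95% interval -0.13 to 0.99, limma adjusted p = 0.428), and 0.15 without D257A replicate 2 and WT replicate 3 (limma adjusted p = 0.765). The most similar profiles were Prss22 (Pearson r 0.947 over 10 arrays), Nnmt (0.919) and Rnf11 (0.914).

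Timp2, which both inhibits metalloproteases and helps Mmp14 to activate pro-Mmp2, was measured by 5 tested probe sets. The brightest, 1433662_s_at, gave 28227, 23786, 25556, 22652 and 18143 in D257A, against 23403, 14729.9, 10482, 21114 and 18306 in WT. WT replicate 3 was the lowest array, D257A replicates 4 and 5 lay within the WT range and the other 3 D257A arrays above it. The log2 fold change was 0.47 (95% interval 0.00157 to 0.93, unadjusted p = 0.0493, limma adjusted p = 0.294), and 0.29 without D257A replicate 2 and WT replicate 3. Of the other tested probe sets 3 were positive, with log2 fold changes of 0.26, 0.38 and 0.81, and 1454677_at was negative at -0.17, with 12900.4 to 21700.3 in D257A and 15414 to 23063 in WT. None of the 5 was called in limma; 1460287_at and 1433662_s_at had unadjusted p under 0.05. The dim 1437081_at, fitted without the filter, had 14.2 to 136.8 in D257A and 23.9 to 201.9 in WT (log2 fold change -0.78, limma adjusted p = 0.57). The most similar profiles to the brightest were Necab3 (Pearson r 0.915 over 10 arrays), Sgtb (0.914) and Hspa12a (0.896).

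Timp3, the inhibitor bound to the matrix, was measured by 4 tested probe sets. The brightest, 1449335_at, gave 11269.7, 7752, 11098, 9958 and 6718.5 in D257A, against 15125, 14786, 13717, 16449.7 and 11345 in WT. Every D257A array lay below every WT array, with D257A replicate 1 just under WT replicate 5. The means were 9359 ± 2036 in D257A and 14280 ± 1911 in WT (SD, n = 5 each; log2 fold change -0.63, SE 0.18, 95% interval -1.02 to -0.24, unadjusted p = 0.00401, limma adjusted p = 0.0919), and the log2 fold change was -0.58 (limma adjusted p = 0.141) without D257A replicate 2 and WT replicate 3. Among the alternatives its adjusted p passed only with arrays centred on the median, which lowered the median log2 fold change of all tested probe sets to -0.101 (Timp3 log2 fold change -0.73, limma adjusted p = 0.0495). Averaging the 4 tested Timp3 probe sets gave the weakest log2 fold change among the alternatives, -0.272. The largest limma adjusted p among them was 0.689. The other 3 Timp3 probe sets had log2 fold changes of -0.41, -0.09 and 0.04 with overlapping groups, and in all 3 of them D257A replicates 2 and 5 and WT replicate 3 were the lowest arrays. The most similar profiles to 1449335_at were Mnat1 (Pearson r 0.959 over 10 arrays), Astn1 (0.956) and asporin, Aspn (0.954), a small leucine-rich protein of the matrix with 322.9 to 682.7 in D257A and 731.6 to 1396 in WT.

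Timp4, a TIMP of heart, brain and fat with a narrow tissue range, gave 1274.5, 1989, 1243, 2502 and 1921.5 in D257A, against 1004, 3964.5, 4077, 2287 and 4509 in WT. WT replicate 1 was the lowest of all 10 arrays and WT replicates 2, 3 and 5 the highest, so the WT group ran over a 4.49-fold range. The means were 1786 ± 531.3 in D257A and 3168 ± 1476 in WT (SD, n = 5 each; log2 fold change -0.69, 95% interval -1.50 to 0.12, limma adjusted p = 0.378), and without WT replicate 1 the log2 fold change was -1.05 (limma adjusted p = 0.073). The most similar profiles to this brightest probe set were Homer3 (Pearson r 0.99 over 10 arrays), Neurod2 (0.949) and En2 (0.946), genes of neurons that are all known in the cerebellum. En2 gave 270.4 to 552.2 in D257A, against 182.1 in WT replicate 1 and 1367 to 2646.5 in the other WT arrays. Neurod2 gave 729 to 1872.5 in D257A, against 316.1 in WT replicate 1 and 1561 to 4369.7 in the other WT arrays. The other Timp4 probe set, 1450974_at, had a log2 fold change of -0.26 (limma adjusted p = 0.787) and another order of arrays. WT replicate 3 gave 778.4 there, near WT replicate 1 at 700, and D257A replicate 4 at 2283.5 lay above WT replicate 2 at 2249.8. Its profile was not compared with those of other genes. The part of neurons in the Timp4 signal was not tested.

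**Figure D4:**
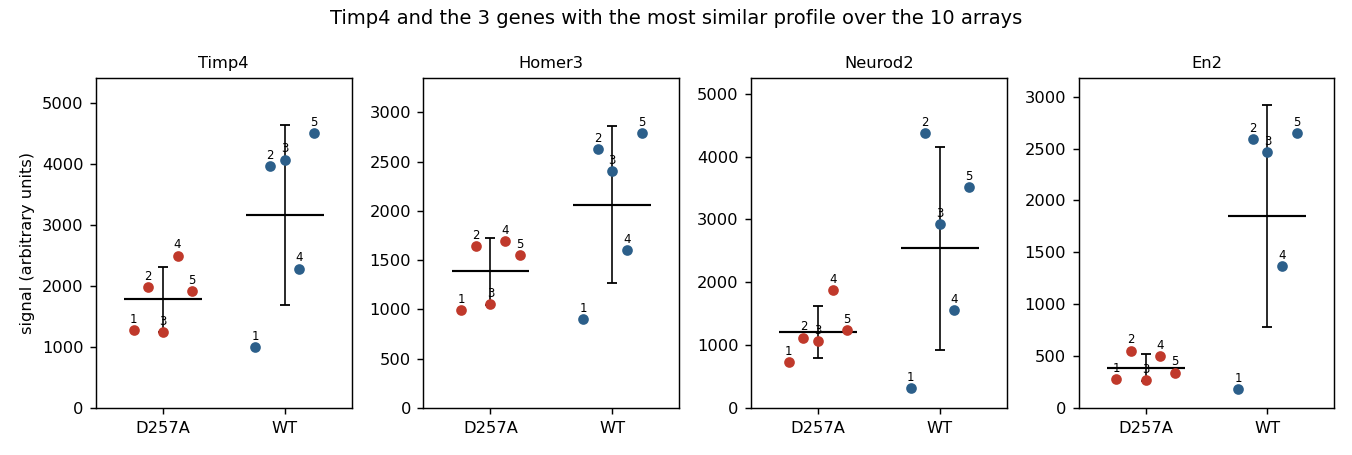
Signal in arbitrary units (linear axes from 0) of Timp4 and of Homer3, Neurod2 and En2, D257A left of WT; points are arrays with their replicate number, lines are means and bars are SD (n = 5 each). WT replicate 1 is the lowest of the 10 arrays and WT replicates 2, 3 and 5 are the highest in all 4 panels, with Timp4 shown by its brightest probe set.

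Protease and inhibitor pairs were compared as the difference of their log2 signals on each array, which shows unequal change and not which is more abundant. Mmp9 minus Timp1 was 0.0522 ± 0.315 in D257A and 0.393 ± 0.584 in WT (SD, n = 5 each), a difference of -0.341 with a two-sided exact permutation p of 0.286. Mmp2 minus Timp2 was -2.25 ± 0.478 in D257A and -1.61 ± 0.714 in WT, a difference of -0.639 with an exact permutation p of 0.103. Mmp14 minus Timp2 was -2.89 ± 0.566 in D257A and -2.44 ± 0.392 in WT, a difference of -0.459 with an exact permutation p of 0.167. All 3 differences were negative and none passed after Benjamini-Hochberg adjustment over the 3 pairs (0.286, 0.25 and 0.25), where the smallest p that the splits of 5 and 5 arrays allow is 0.00794. Without D257A replicate 2 and WT replicate 3 the differences were -0.0694, -0.323 and -0.199, and none passed. With the Mmp2 probe set 1416136_at, an alternative added after seeing the data, the Mmp2 minus Timp2 difference was -1.46. That probe set was taken because it was lower in D257A, so this value is a description with no test.

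**Figure D5:**
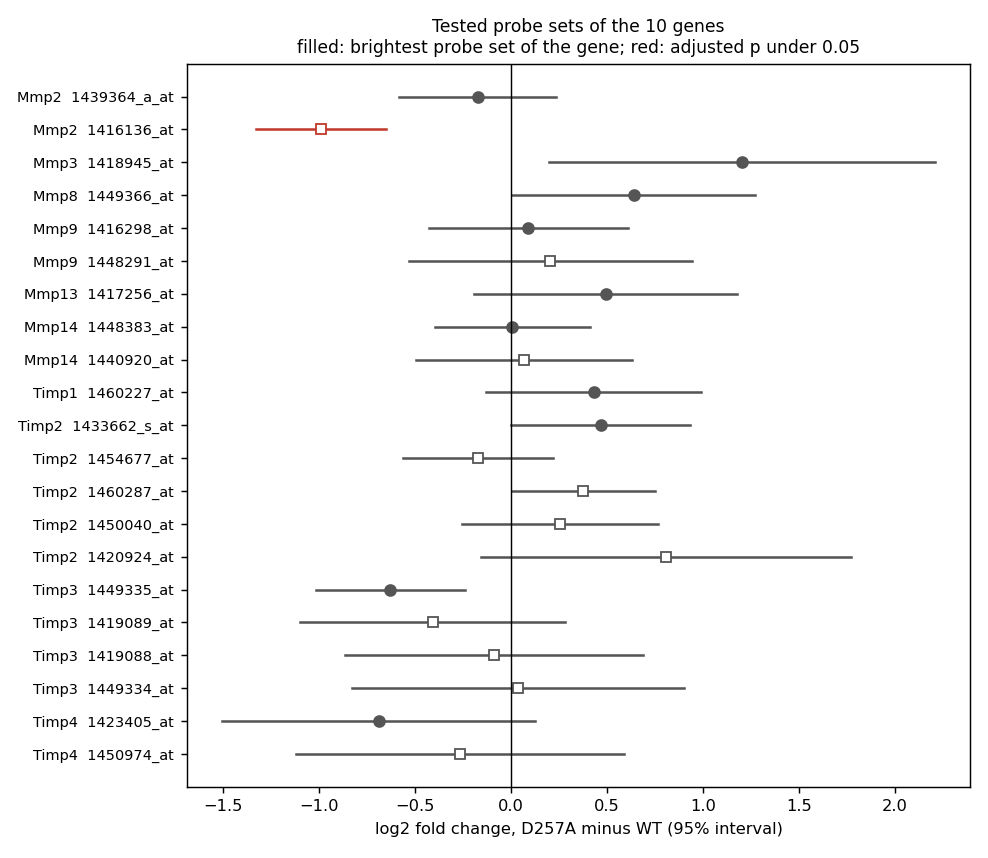
Log2 fold change, D257A minus WT (horizontal axis), of the 21 tested probe sets with 95% intervals from limma (n = 5 arrays each); filled circles mark the brightest probe set of a gene, open squares the others, and red an adjusted p under 0.05. Mmp2 1416136_at at -0.99 is the 1 red entry, and the probe sets of Timp2 and Timp3 fall on both sides of 0.

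Related proteases held 1 call. Of 17 other metalloprotease genes 12 were measured and 3 lay in the tested part, Mmp16, Mmp17 and Mmp24, with 0 called (unadjusted p under 0.05 in 0 of 3). Of 26 ADAM and ADAMTS proteases 15 were tested, 7 positive and 8 negative (median -0.0559). Adamts4, an aggrecan-cutting enzyme, rose in D257A: the signals were 1183, 1064, 924, 1771 and 1386 in D257A, against 444.5, 675, 379.9, 564 and 649 in WT (log2 fold change 1.19, SE 0.23, limma adjusted p = 0.0196). All D257A arrays lay above all WT arrays, and the call was kept with each of the 10 arrays left out (adjusted p up to 0.0498). Adamts10, which takes part in microfibril assembly, averaged lower in D257A without a call (log2 fold change -0.91, limma adjusted p = 0.089). Among 12 tested activators and regulators 6 were positive and 0 were called, the smallest adjusted p being that of the urokinase receptor gene Plaur (log2 fold change 0.86, limma adjusted p = 0.097), with unadjusted p under 0.05 in Plaur and Lcn2 alone. Among 14 tested transcription and cytokine regulators 8 were positive (median 0.216). Nfkbia, an NF-kB inhibitor, just missed the threshold (log2 fold change 0.92, limma adjusted p = 0.0527), and Ets2, an ETS factor, was called lower at 2554 ± 271.2 in D257A and 4059 ± 625.8 in WT (SD, n = 5 each; limma adjusted p = 0.0486). That call was lost with any 1 of the 10 arrays left out (adjusted p up to 0.152).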

How the data were processed

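Cochlear RNA was labelled with biotin and hybridised to an Affymetrix mouse array, according to the labels. The deposited values are linear probe set intensity, made by the authors with GCOS 1.3, per the submitters' processing notes. Not given in the sources used here were the probe summary, the background correction, the build and the scaling target. A further 64 control probe sets, filled on 1 array only, were left out. No scan batch was examined.

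Signals entered limma 3.58.1 (R 4.3.3) as log2(signal + 16), a scale that understates fold changes of dim genes. The brighter 22518 probe sets (mean signal from 577.4) were tested with group as the only term and 8 residual degrees of freedom. P-values are two-sided and were adjusted by Benjamini-Hochberg across the 22518. Symbols were those of the platform table, updated by gene ID to RefSeq: 34945 probe sets had 1 gene, 932 several and 9160 none. Scripts were tested on simulated data. The labels do not state that each array is a separate animal, so p-values measure the spread between arrays, whose number limits the precision.

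The members and lists were chosen with earlier results of these data known. The genes set for naming were the members with every probe set, all called genes and up to 4 of the smallest p in each list, and the 3 genes with the highest Pearson r for each member. Not all list genes of that rule are printed, and some called markers are given only as counts. Alternatives were pseudocounts of 1 and 64, centring on the median, quantile normalization, no filter on dim probe sets, the brightest 30%, a fit lacking the intensity trend, weighting of arrays, the replicate number as a block, arrays left out singly or as a pair, averaging the probe sets of a gene, and the study's rule of an unadjusted p under 0.05 with a fold over 1.1.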

Additional observations from a re-analysis of the deposited data

Results flagged for a closer look

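Of 42 groups of 5 arrays examined (21 probe sets in each genotype), 1 held an array far from the others: WT replicate 3 in Timp3 1419088_at, at 1303.6 against 3355.3 for the nearest WT array. The gap to the nearest array was 0.946 of the whole WT range, above the critical value of 0.71. Chance marks about 1 in 20 such groups, and over all tested probe sets 5.39% of D257A and 10.2% of WT groups were marked.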

How the results depend on the processing

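Of 441 alternative values of the 21 probe sets and of the Mmp2 probe set difference, 411 kept their direction and side of the threshold, 26 changed sign, 2 lost and 2 gained a call; the causes were not tested. The 513 probe sets called in all became 322 among the brightest 30%, 1217 with array weights, 188 with the replicate block, 3809 by the study's rule, and 168 (without WT replicate 2) to 574 (without WT replicate 3) with 1 array left out. It was also moved by over 1.5 times without D257A replicate 1 (299) or 5 (323) and WT replicate 4 (277) or 5 (177). The share called higher, 45.4%, was 26.6% with median centring, which shifted the median of all tested probe sets to -0.101, 59.1% without D257A replicate 4 and 34% without WT replicate 1. The number of the 10 genes called was 1 with median centring (Timp3), 1 with the mean of a gene's probe sets (Mmp2) and 4 by the study's rule. The number of the 21 probe sets called was 2 with median centring, 0 with the replicate block and 6 by the study's rule. Over all tested probe sets the numbers were 653, 188 and 3809. The labels do not say what a replicate number marks. After each group's mean was subtracted from every tested probe set, same-numbered arrays correlated at 0.183, -0.214, -0.337, 0.148 and 0.181. D257A replicate 2 correlated at up to 0.632 with a WT array of another number. The numbers were not taken as pairs, and whether some arrays share a source is not known. With the replicate block the limma adjusted p of Mmp2 1416136_at was 0.0512. The Mmp2 probe set difference of -0.817 had an exact sign-flip p of 0.0625, the smallest that 5 pairs allow. That difference was chosen after its values were seen, so this p is a description.

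Mmp2 minus Timp2 passed with the mean of a gene's probe sets (-0.928, adjusted exact permutation p = 0.0238), a mean that contains 1416136_at. With 1416136_at alone it was -1.46, a description added after seeing the data. Mmp9 minus Timp1 ranged from -0.577 (without WT replicate 4, adjusted exact permutation p = 0.0476) to -0.179 with 1 array left out, and was -0.0694 without WT replicate 3 and D257A replicate 2. Signs turned in log2 fold changes near 0. Those with median centring were -0.0108 (Mmp9 1416298_at), -0.0341 (Mmp14 1440920_at), -0.0925 (Mmp14 1448383_at) and -0.0652 (Timp3 1449334_at). Mmp14 1440920_at was also -0.0113 with quantile normalization and -0.0643 with array weights, and Mmp16 was -0.000373 with array weights. Without WT replicate 3 and D257A replicate 2, Mmp14 1440920_at was -0.0384 and Timp3 1449334_at -0.0284. With 1 array left out the ranges were -0.0393 to 0.239 (Mmp9 1416298_at), -0.0708 to 0.386 (Mmp9 1448291_at), -0.104 to 0.199 (Mmp14 1440920_at), -0.0842 to 0.116 (Mmp14 1448383_at), -0.366 to 0.155 (Timp3 1419088_at), -0.216 to 0.238 (Timp3 1449334_at) and -0.0186 to 0.278 (Mmp16). Signal over background is not known for any probe set.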
